A study of Mus musculus with 4 samples.

Results

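Solute carriers, the membrane proteins that move nutrients, ions and metals across the plasma membrane and the membranes of organelles, were described in KO and WT T cells. The data come from mouse naive T cells of the spleen that had been cultured for 3 days under conditions that induce regulatory T cells (Treg cells), and hold 2 arrays of KO cells and 2 arrays of WT cells. Which gene the KO lacks is not stated in the labels, so its level is not reported, and neither are the strain, the age of the mice, the number of animals behind each array or the purity of the cultures. P-values reflect only the spread between these 4 samples, part of which may be technical. Of 18193 genes with a probe set of their own on the array, 347 had a symbol of the Slc form, and 141 of these had a mean signal of 200 or more over the 4 arrays on their brightest probe set. These 141 members carry solute carrier symbols, 4 of them for genes that are not transporters themselves. The mean signal chose the members. It was 203 to 204 in the members just inside the minimum (Slc30a3, Slc9a7 and Slc46a3) and 195 to 198 in the genes just outside it (Slc35c2, Slc2a9 and Slc39a13).

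Solute carriers are grouped into numbered families by sequence, and a family often shares its cargo. Activated T cells are known to raise glucose, lactate and large neutral amino acid transport as they grow, mainly through Slc2a1, Slc16a1, Slc7a5 with its partner Slc3a2, and Slc1a5. Zinc enters the cytosol through the Slc39 family and leaves it through the Slc30 family, while the Slc25 family serves the inner membrane of mitochondria. Signal is the MAS5 value of a probe set (several short probes aimed at the same transcript) on a linear scale. Differences are KO minus WT on log2(signal + 16). A member was called when its adjusted p in limma (Benjamini-Hochberg over all 27022 tested probe sets) was at most 0.05. Signals of different probe sets are not comparable as levels, so each member is compared only with itself.

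In KO cells 26 of the 141 members were called higher (18.4%) and 11 were called lower (7.8%), while 104 were not called. Over all tested probe sets 7.89% were called higher and 9.17% lower. Over the 8609 genes chosen by the same signal rule from all symbols, 12.3% were called higher and 13.4% lower. The median log2 difference of the members was 0.09, against -0.05 for the genes of the same rule and -0.08 for all tested probe sets. Both KO arrays lay above both WT arrays in 60 members (42.6%, against 30.4% of the genes of the same rule) and below them in 34 members (24.1%, against 38.4%), and the arrays of the groups overlapped in 47. The share of members on the higher side was thus above these backgrounds and the share on the lower side below them, a description that carries no test of its own. A log2 difference under 0.5 in size was found in 90 of 141 members (63.8%). This share was 73.7% over the genes of the same rule and 65.9% over all tested probe sets. Of the members 10 were called higher and 2 lower by at least 2-fold. Among the 8609 genes of the same rule 460 were called higher and 245 lower by this much. The median gap between the 2 KO arrays was 0.17 on the log2 scale and that between the 2 WT arrays 0.16, against a median size of 0.30 for the KO minus WT difference. In 14 members the mean of one group lay under 200, so that they entered through the other group. Of these, Slc15a1, Slc7a2, Slc4a11 and Slc9b2 were called higher and Slc2a4rg-ps lower. Among the 127 members at 200 or more in both groups 22 were called higher (17.3%) and 10 lower (7.87%). By at least 2-fold, 6 of them were called higher and 2 lower. The genes of the same rule were not limited in this way, so no matched share is given.

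**Figure D1:**
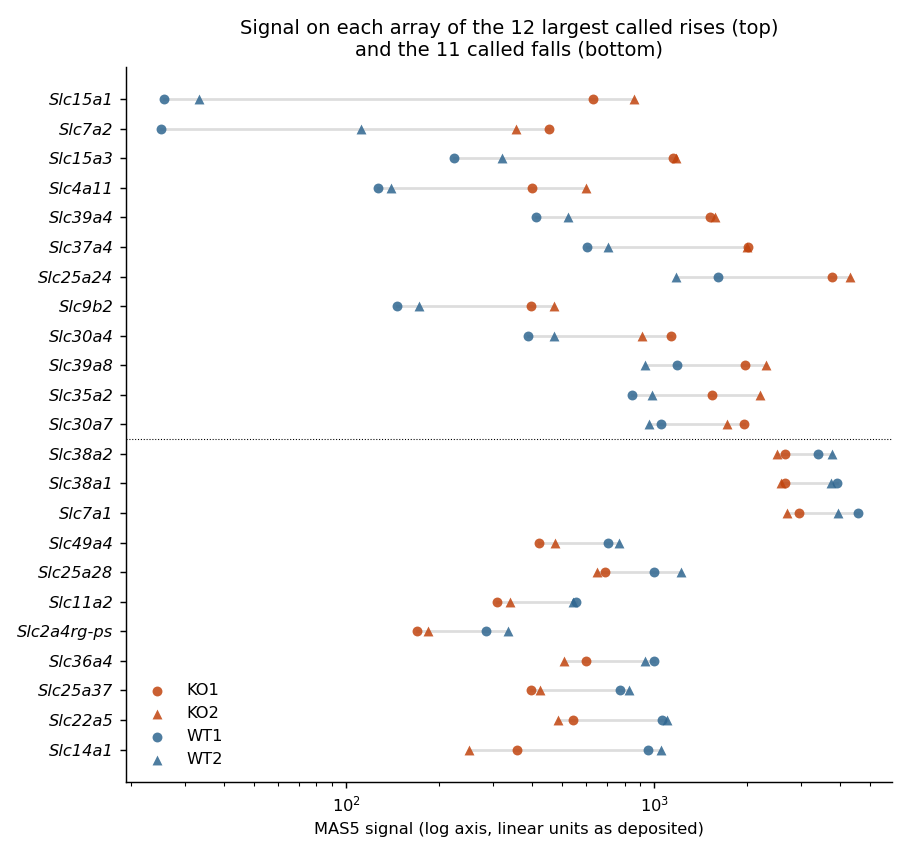
Signal on each of the 4 arrays, on a log axis, for the 12 largest called rises and the 11 called falls, with KO arrays in orange and WT arrays in blue. In each row both KO arrays lie on one side of both WT arrays, with the widest gap for Slc15a1 (633 and 861 in KO cells, 25.5 and 33.2 in WT cells).

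The calls depended on how the spread was estimated and on single arrays. Without the intensity trend of the variance 7 members were called higher and 2 lower: Slc15a1, Slc15a3, Slc4a11, Slc39a4, Slc37a4, Slc25a24, Slc9b2, Slc22a5 and Slc14a1. Whichever array was left out, 18 of the 37 calls were kept, 15 of rises and 3 of falls. Without WT1 17 members were called higher and 5 lower. Without WT2 16 were called higher and 6 lower. The 15 calls lost without WT1 had adjusted p-values of 0.0518 to 0.16 and included Slc7a5, Slc16a3, Slc7a1 and Slc38a1. The 15 lost without WT2 had 0.0648 to 0.238 and included Slc16a3, Slc38a2 and Slc25a28. Without KO1 8 calls were lost, at adjusted p-values of 0.061 to 0.167. Without KO2 5 calls were lost, at 0.0617 to 0.176.

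Markers of other cells moved with the genotype as well. All 9 mast cell and basophil markers were tested and 8 were called higher in KO cells. Their summed signals, Kit included, were 14253 and 8987 in KO cells, against 774 and 951 in WT cells. Kit, the marker not called, gave 902 and 768 in KO cells and 616 and 713 in WT cells, most of the WT sums. The 3 eosinophil markers with a probe set summed to 5444 and 2046 in KO cells, against 18.1 and 73.6 in WT cells, and Siglecf was dim on every array (36.1 and 31.5 in KO cells, 0.644 and 27.8 in WT cells). The 5 macrophage and monocyte markers summed to 1617 and 1382 in KO cells, against 378 and 530 in WT cells, with 4 called higher. Of the neutrophil markers 2 of 3 tested were called higher, and of the markers of B and plasma cells 1 of 3, Jchain. None of the 3 dendritic cell markers was called, and the NK cell markers were too dim to test. Of the T cell markers 3 of 5 were called higher and 1 lower, and both CD8 markers were called higher. The 4 Treg markers were divided, with 2 called higher (Il2ra, 0.99, and Ctla4, 0.97) and 2 lower (Foxp3 and Ikzf2, -0.73). Foxp3, the transcription factor that defines Treg cells, was lower at 947 and 1101 in KO cells, against 2177 and 2033 in WT cells (log2 difference -1.03 ± 0.13 SE, limma adjusted p = 0.00123). In bulk samples, fewer cells of a type and less RNA per cell cannot be told apart. The part of these other cells in the solute carrier results was not tested.

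The largest rises among the members were those of the peptide carriers Slc15a1 and Slc15a3 and of Slc7a2, a carrier of cationic amino acids. The WT means of Slc15a1 (29.4) and Slc7a2 (68.5) lay under the minimum signal, so both entered through the KO arrays. Among members at the minimum in both groups, Slc15a3 (log2 difference 2.06), Slc39a4 (1.70) and Slc37a4 (1.59) rose most. Slc15a1, the proton-coupled carrier that takes up short peptides in the gut, gave signals of 633 and 861 in KO cells, against 25.5 and 33.2 in WT cells. Both KO arrays were far above both WT arrays. The difference was 4.06 ± 0.26 (SE) on the log2 scale, a ratio of 16.7 (limma adjusted p = 4.32e-05). It was 3.11 with a pseudocount of 64, since the WT signals are small. Slc15a3, which carries peptides and histidine across endosome and lysosome membranes, gave 1153 and 1179 in KO cells, against 224 and 321 in WT cells. Both KO arrays were above both WT arrays, by 2.06 ± 0.19 (limma adjusted p = 0.000287). Slc15a4, its close relative in the same membranes, gave 723 and 782 in KO cells and 699 and 755 in WT cells, and these ranges overlapped (0.05, with a 95% interval of -0.28 to 0.38).

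Carriers of cationic amino acids moved in opposite directions. Slc7a2, an arginine carrier that macrophages use, gave 454 and 354 in KO cells, against 25 and 112 in WT cells. The WT arrays differed widely from each other, and the difference of 2.53 ± 0.47 (limma adjusted p = 0.00831) was 1.70 without WT1 and 3.35 without WT2. Slc7a1, the arginine and lysine carrier of most cells, fell to 2953 and 2687 in KO cells, against 4569 and 3939 in WT cells. The groups did not overlap (-0.59 ± 0.12, limma adjusted p = 0.0107), and a second Slc7a1 probe set also fell, by 0.71 on the log2 scale (limma adjusted p = 0.00464). Slc7a3, another carrier of this kind, overlapped between groups at 282 and 200 in KO cells and 290 and 274 in WT cells.

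Neutral amino acid carriers were likewise divided. Slc7a5, the light chain of the leucine exchanger LAT1, rose to 3354 and 3028 in KO cells, against 1981 and 2167 in WT cells, a ratio of 1.53 (0.62 ± 0.11, limma adjusted p = 0.00792). Its heavy chain partner Slc3a2 gave 2989 and 2392 in KO cells and 2209 and 2121 in WT cells and was not called (0.30, 95% interval 0.00 to 0.60, limma adjusted p = 0.157). Slc7a6, another light chain of Slc3a2, gave 1034 and 1030 in KO cells and 841 and 851 in WT cells and was not called either (0.28, limma adjusted p = 0.181). Slc38a1 and Slc38a2, sodium-coupled carriers of glutamine and alanine, were both called lower. Slc38a1 gave 2646 and 2581 in KO cells, against 3922 and 3745 in WT cells (-0.55 ± 0.10, limma adjusted p = 0.00791). Slc38a2 gave 2657 and 2495 in KO cells, against 3403 and 3764 in WT cells (-0.47 ± 0.11, limma adjusted p = 0.0207), and its second probe set fell further, by 1.13 on the log2 scale. Neither gene overlapped between groups. Slc38a6, of the same family, lay the other way without overlap at 393 and 415 in KO cells, against 283 and 230.4 in WT cells, and was not called (0.63, limma adjusted p = 0.0588). Slc36a4, a member of the proton-assisted amino acid carriers, gave 602 and 511 in KO cells, against 1000.02 and 934 in WT cells (-0.78 ± 0.15, limma adjusted p = 0.00977). Slc6a6, the taurine carrier, rose to 3043 and 2903 in KO cells, against 1730 and 1549 in WT cells, with no overlap (0.85 ± 0.11, limma adjusted p = 0.00169). On their brightest probe sets Slc38a9, the lysosomal arginine sensor, Slc38a10, Slc7a4, Slc36a1 and Slc43a2 lay between -0.18 and 0.18 and were not called. Slc43a2 is an exporter of large neutral amino acids. Other probe sets of Slc38a10 gave 0.38, 0.26 and -0.36, without a call.

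Of the 20 members for amino acids and peptides, 5 were called higher (25%) and 4 lower (20%), with a median of 0.14. Of the genes of the same rule 12.3% were called higher and 13.4% lower. No member of the Slc1 family reached the minimum. Slc1a5, the glutamine and alanine exchanger, came closest to it (220 and 158 in KO cells, 142 and 114 in WT cells) and was not called. Of the 40 genes under the minimum in the Slc1, Slc2, Slc3, Slc7, Slc11, Slc16, Slc38 and Slc40 families 17 were bright enough to test. Of these 2 were called higher and 1 lower, against 7.89% and 9.17% of all tested probe sets. Slc7a8, a light chain for neutral amino acids, gave 258 and 99.6 in KO cells, against 2.52 and 8.06 in WT cells (3.08 ± 0.50, limma adjusted p = 0.00416). Slc7a11, the cystine importer, gave 187 and 137 in KO cells, against 23.8 and 59.5 in WT cells, and was called higher (limma adjusted p = 0.0212). Among listed genes of the amino acid response, Castor1, a cytosolic arginine sensor, and Sesn2 were called higher (0.74 and 0.73). Rragd, a lysosomal GTPase, and Sesn1 were called lower (-1.15 and -1.67). Sesn3, Rraga, Rragc, Lamtor1, Mlst8, Mtor, Rptor and Atf4 were not called (-0.34 to 0.36).

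Among glucose and lactate members some were called higher and the rest were not called. Of 6 members for sugars and inositol 1 was called higher (16.7%) and none lower, with a median of 0.10. Of 3 members for monocarboxylates 2 were called higher and none lower. The shares over the genes of the same rule were 12.3% higher and 13.4% lower. Slc2a3, a glucose carrier of high affinity, gave 21776 and 19194 in KO cells, against 12735 and 13280 in WT cells. No arrays overlapped, the ratio was 1.57 (0.65 ± 0.09, limma adjusted p = 0.00228), and a second probe set rose by 0.91 (limma adjusted p = 0.000309). Slc2a1, the main glucose carrier of activated T cells, gave 18062 and 20106 in KO cells and 16268 and 16549 in WT cells. The KO arrays were above the WT arrays, but the brightest probe set was not called (0.22, 95% interval 0.01 to 0.42, limma adjusted p = 0.136). A second probe set of Slc2a1 was called higher at 13484 and 13688 in KO cells, against 9800 and 10279 in WT cells (0.44, limma adjusted p = 0.0101). The vesicular carriers Slc2a6 and Slc2a8 overlapped between groups, and Slc5a3, the sodium-coupled inositol carrier, gave -0.58 without a call (limma adjusted p = 0.0678).

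Lactate crosses the plasma membrane through carriers of the Slc16 family, which need the chaperones Bsg or Emb to reach it. Slc16a1, the carrier of most cells, overlapped at 5061 and 5116 in KO cells and 5498 and 5060.39 in WT cells (-0.05, 95% interval -0.27 to 0.17). Slc16a3, the lactate exporter of glycolytic cells, rose to 363 and 475 in KO cells, against 254 and 224 in WT cells (0.76 ± 0.21, limma adjusted p = 0.0396). Slc16a6, a relative, rose to 1074 and 843 in KO cells, against 568 and 661 in WT cells (0.62 ± 0.17, limma adjusted p = 0.0386). Slc16a5, a relative under the minimum, was called lower at 29.1 and 42.5 in KO cells, against 209.8 and 150.03 in WT cells (-1.91 ± 0.33, limma adjusted p = 0.0061). The calls of Slc16a3 and Slc16a6 were each lost without WT1 and without WT2. Bsg rose to 7377 and 7249 in KO cells, against 3507 and 3968 in WT cells (0.97 ± 0.10, limma adjusted p = 0.000507), and Emb rose by 0.84. Hif1a, a transcription factor known to act on glycolytic genes, was called higher (1.81) and Txnip, which holds back glucose uptake, lower (-0.58). Of the 43 tested partners and regulators of transporters 10 were called higher and 9 lower. Over all tested probe sets 7.89% were called higher and 9.17% lower, and over the genes of the same rule 12.3% and 13.4%. Nedd4, another gene of this list, was called higher (2.71, limma adjusted p = 9.66e-05). Nedd4l, also of this list, was called lower (-1.09, limma adjusted p = 0.00128).

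**Figure D2:**
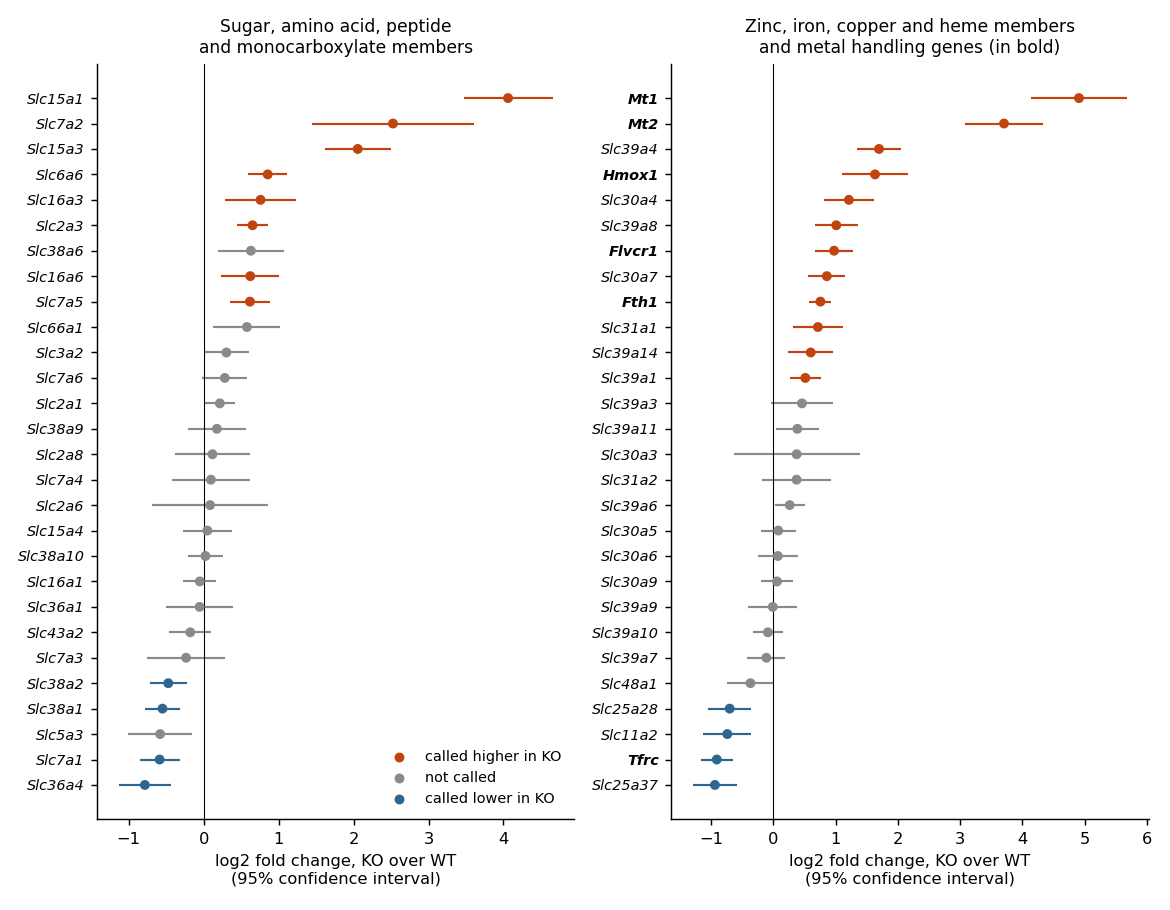
Log2 difference of KO minus WT, with its 95% interval, for sugar, amino acid, peptide and monocarboxylate members (left) and for metal members with metal handling genes in bold (right). Slc15a1 stands at 4.06 and Mt1 at 4.91, while Slc16a1 sits near 0.

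Of 20 metal carriers 7 were called higher (35%) and 1 lower (5%), with a median of 0.37. Slc25a37 and Slc25a28, which bring iron into mitochondria and were both called lower, were counted with the mitochondrial carriers and not here. Of the genes of the same rule 12.3% were called higher and 13.4% lower. The 7 include Slc30a7 and Slc31a1, whose other probe sets did not rise (-0.98 and -0.12). Zinc carriers made up most of the 7. Of 10 Slc39 importers 4 were called higher and none lower, and of 6 Slc30 exporters 2 were called higher and none lower, 1 of them (Slc30a7) on only 1 of its probe sets. Slc39a4, the zinc importer of the gut, gave 1517 and 1573 in KO cells, against 414 and 523 in WT cells. The groups were well apart, with a ratio of 3.24 (1.70 ± 0.16, limma adjusted p = 0.000262). Slc39a8, an importer of zinc, manganese and iron, gave 1972 and 2308 in KO cells, against 1182 and 935 in WT cells (1.01 ± 0.15, limma adjusted p = 0.00296). Slc39a14, its close relative, rose by 0.60 (limma adjusted p = 0.0347) and Slc39a1, a plasma membrane importer, by 0.51 (limma adjusted p = 0.0146). The remaining Slc39 members, among them Slc39a6 (0.26) and Slc39a10 (-0.09), were not called. Slc30a4, which loads zinc into vesicles, gave 1132 and 912 in KO cells, against 389 and 474 in WT cells, with no overlap (1.21 ± 0.17, limma adjusted p = 0.00244).

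Slc30a7, which moves zinc into the Golgi, gave an unsettled result. Its brightest probe set read 1958 and 1717 in KO cells, against 1051 and 959.6 in WT cells, and was called higher (0.86 ± 0.13, limma adjusted p = 0.00318). Its other probe set read 408 and 384 in KO cells, against 964 and 655 in WT cells, and was called lower (-0.98 ± 0.20, limma adjusted p = 0.013). The mean of both probe sets gave -0.06, so no direction is given for the gene. The metallothioneins, small zinc-binding proteins of the cytosol, were called higher. Mt1 read 5444 and 3391 in KO cells, against 83.5 and 192 in WT cells (4.91 ± 0.34, limma adjusted p = 6.24e-05), and Mt2 rose by 3.70. Mtf1, the zinc-sensing transcription factor known to act on metallothionein genes, was not called (0.22, limma adjusted p = 0.405). Of the copper carriers, Slc31a1, the plasma membrane importer, was called higher on its brightest probe set (0.72, limma adjusted p = 0.0273). Its second probe set gave -0.12 and was not called.

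Beside Slc39a8 and Slc39a14, which carry iron as well as zinc and were called higher, 3 other iron carriers were called lower. Slc11a2, which brings iron out of endosomes, gave 309 and 339 in KO cells, against 556 and 546 in WT cells, without overlap (-0.74 ± 0.17, limma adjusted p = 0.0195). A second probe set of Slc11a2 gave -0.18 and was not called. The mitoferrins Slc25a37 and Slc25a28, which bring iron into mitochondria, were both called lower. Slc25a37 gave 396 and 424 in KO cells, against 776 and 824 in WT cells (-0.94 ± 0.15, limma adjusted p = 0.00435). Slc25a28 gave 694 and 653 in KO cells, against 997 and 1222 in WT cells (-0.70 ± 0.15, limma adjusted p = 0.0161). Tfrc, the transferrin receptor that delivers iron to the endosome, was lower at 1916 and 1958 in KO cells, against 3854 and 3453 in WT cells (-0.91 ± 0.11, limma adjusted p = 0.00104). Fth1, the iron storage protein ferritin heavy chain, rose by 0.76, Hmox1, which breaks down heme, by 1.63, and Ncoa4, the receptor for ferritin breakdown, was lower (-0.48). Slc11a1, the metal carrier of phagosomes, was under the minimum at 86.4 and 141 in KO cells, against 40.2 and 55.4 in WT cells, and was not called (limma adjusted p = 0.0967). The exporter Slc40a1 was too dim to test.

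Promoter windows of 300 bases, from 250 before to 50 after the start of a RefSeq gene (build GRCm38.p6), were read for 106 members, 22 of them called. The metal response motif (TGCACNC or TGCGCNC, both strands) was found in 41.7% of the members' windows and in 25.7% of all 32851 windows. It stood in 7 of 20 windows of members called higher, 0 of 7 of those called lower and 51 of 112 of those not called. The GC box (GGGCGG, both strands) stood in 76.3% of the members' windows and in 35.7% of all windows, and the overlap of these motifs with each other was not removed. The members were chosen by signal and the genes behind all windows were not, so these shares do not compare matched sets. A match is a run of letters and not a binding site. Mt1 rose more than Mt2, and Slc30a4 was a zinc carrier called higher. Slc15a1 had the largest rise among the members, and Slc22a5 was among their largest falls. For these reasons the following windows are shown. They lie at chr8:94178839-94179138 on the plus strand (Mt1), chr2:122702614-122702913 on the minus strand (Slc30a4), chr14:121505205-121505504 on the minus strand (Slc15a1) and chr11:53891654-53891953 on the minus strand (Slc22a5). Each is written 5′ to 3′ along the gene. Capitals mark the metal response motif in Mt1 and Slc30a4, 3 matches in each, and the GC box in Slc22a5, with 5 matches. The Slc15a1 window held no GC box and 1 match to the metal response motif, which is not in capitals. The windows of Slc30a7 and Slc39a1, zinc carriers also called higher on their brightest probe sets, held no match to the metal response motif and are not shown.
Mt1: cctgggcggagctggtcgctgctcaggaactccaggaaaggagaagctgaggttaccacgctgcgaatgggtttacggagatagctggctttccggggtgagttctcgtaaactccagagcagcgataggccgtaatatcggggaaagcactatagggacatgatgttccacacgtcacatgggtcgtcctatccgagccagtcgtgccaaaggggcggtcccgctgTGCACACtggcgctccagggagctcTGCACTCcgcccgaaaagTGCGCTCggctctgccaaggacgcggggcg
Slc30a4: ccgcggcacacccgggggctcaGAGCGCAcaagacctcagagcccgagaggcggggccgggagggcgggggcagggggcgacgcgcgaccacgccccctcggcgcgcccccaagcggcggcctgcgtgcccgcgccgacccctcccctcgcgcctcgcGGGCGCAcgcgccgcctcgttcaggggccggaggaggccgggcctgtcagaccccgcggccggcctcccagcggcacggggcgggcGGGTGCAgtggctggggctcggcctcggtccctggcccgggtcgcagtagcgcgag
Slc15a1: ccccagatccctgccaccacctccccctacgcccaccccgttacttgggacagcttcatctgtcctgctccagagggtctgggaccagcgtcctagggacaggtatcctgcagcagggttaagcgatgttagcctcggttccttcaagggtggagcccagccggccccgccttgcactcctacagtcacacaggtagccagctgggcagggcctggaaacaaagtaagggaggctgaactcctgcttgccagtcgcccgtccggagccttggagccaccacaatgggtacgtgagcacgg
Slc22a5: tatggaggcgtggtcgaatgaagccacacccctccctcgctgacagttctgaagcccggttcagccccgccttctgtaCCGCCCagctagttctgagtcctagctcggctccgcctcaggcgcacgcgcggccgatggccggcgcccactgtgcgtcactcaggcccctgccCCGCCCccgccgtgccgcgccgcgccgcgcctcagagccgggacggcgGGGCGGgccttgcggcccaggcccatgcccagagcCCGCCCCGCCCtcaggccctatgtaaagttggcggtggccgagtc

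Carriers of nucleotide sugars, sugar phosphates and acetyl-CoA serve mainly the endoplasmic reticulum and Golgi. Of 16 such members 5 were called higher (31.2%) and none lower, against 12.3% and 13.4% of the genes of the same rule. The class median was 0.27. Slc37a4, which brings glucose 6-phosphate into the endoplasmic reticulum, gave 2006 and 1994 in KO cells, against 604 and 708 in WT cells. The KO arrays were nearly equal and both well above the WT arrays, a ratio of 3.01 (1.59 ± 0.14, limma adjusted p = 0.000176). Slc35a2, which supplies UDP-galactose to the Golgi, gave 1537 and 2197 in KO cells, against 847 and 982 in WT cells (0.998 ± 0.18, limma adjusted p = 0.00715), and its second probe set rose too (0.88, limma adjusted p = 0.0312). Slc35a3, for UDP-N-acetylglucosamine, Slc35b1, for ATP of the endoplasmic reticulum, and Slc33a1, for acetyl-CoA, rose by 0.59 to 0.61. Slc35a1, the carrier of CMP-sialic acid, overlapped between groups (-0.01), and Slc35c1, that of GDP-fucose, gave -0.43 and was not called. Slc37a1, a sugar phosphate carrier, had the lowest difference of the class and narrowly missed the threshold, at 214 and 201 in KO cells, against 307 and 392 in WT cells (-0.70, limma adjusted p = 0.0543).

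Of 30 mitochondrial carriers of the Slc25 family 4 were called higher (13.3%) and 2, the mitoferrins, lower (6.67%). Of the genes of the same rule 12.3% were called higher and 13.4% lower. The other 24 carriers were not called (80%, against 74.3% of the genes of the same rule), and the class median was 0.09. Slc25a24, the calcium-regulated carrier of ATP-magnesium and phosphate, gave 3767 and 4305 in KO cells, against 1607 and 1175 in WT cells. The groups did not overlap, with a ratio of 2.91 (1.54 ± 0.16, limma adjusted p = 0.000451). Slc25a15, the ornithine carrier, rose by 0.83 (limma adjusted p = 0.00545), Slc25a40, a glutathione carrier, by 0.63 and Slc25a46, a protein of the outer membrane, by 0.51. On their brightest probe sets the ADP/ATP carriers Slc25a4 (0.17) and Slc25a5 (0.02) and the phosphate carrier Slc25a3 (-0.01) overlapped between groups. Other Slc25a4 probe sets gave 0.34 and 0.18, with the KO arrays above the WT arrays but no call. Other Slc25a5 probe sets were mixed and not called. Some had the KO arrays above the WT arrays (0.24, 0.27 and 0.36) and the rest overlapped (-0.01 to 0.11). The interval of Slc25a3 was -0.20 to 0.18. Slc25a1, the citrate carrier (0.23), and Slc25a20, the acylcarnitine carrier (0.19), were not called.

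**Figure D3:**
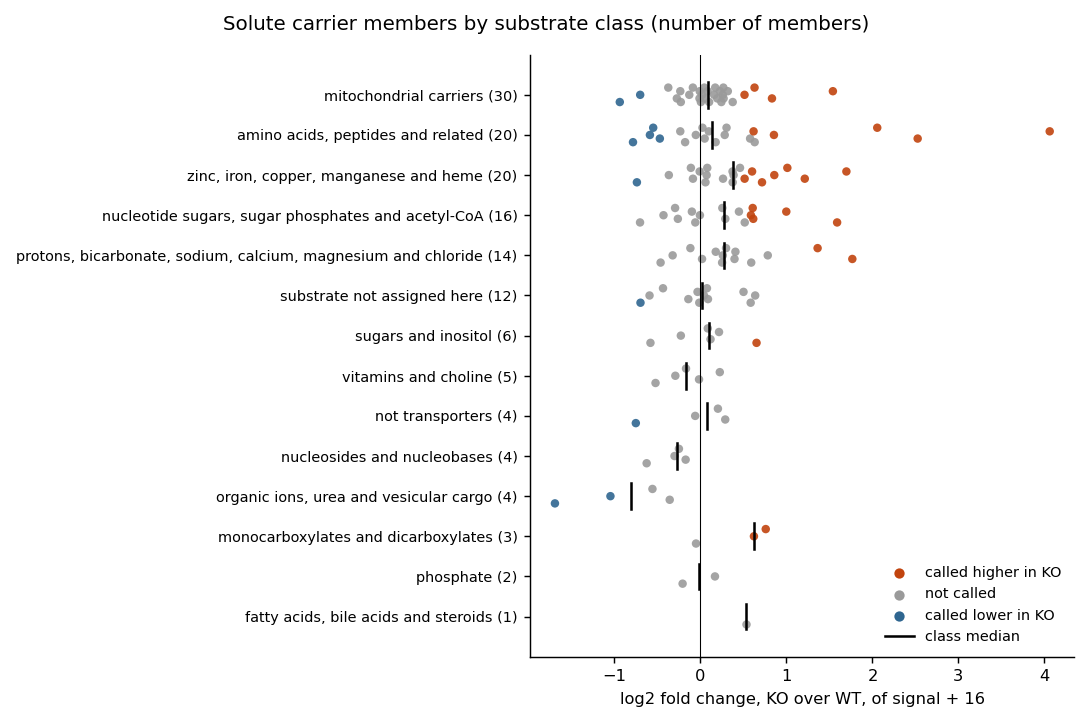
Log2 difference of KO minus WT for each of the 141 members by substrate class, with called members in colour and a bar at the class median. Metal carriers have a median of 0.37 with 7 rises, the mitoferrins being counted with the mitochondrial carriers. Mitochondrial carriers cluster near 0.09, and the class of organic ions and urea lies at -0.80.

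The largest falls were in 2 carriers of small organic molecules. Slc14a1, the urea channel of red cells and kidney, gave 358 and 249 in KO cells, against 955 and 1051 in WT cells. Both KO arrays were below both WT arrays, with a log2 difference of -1.69 ± 0.20 and a WT over KO ratio of 3.23 (limma adjusted p = 0.000825), and its second probe set gave -1.86 (limma adjusted p = 0.000237). Slc22a5, the carnitine carrier that serves fatty acid oxidation, gave 544 and 486 in KO cells, against 1058 and 1100.15 in WT cells. The groups did not overlap (-1.05 ± 0.14, limma adjusted p = 0.00193). Slc17a9, which loads ATP into vesicles, was not called on its brightest probe set (-0.56, limma adjusted p = 0.0587), while a second probe set was called lower (-0.85, limma adjusted p = 0.0241). Of the 3 erythroid markers with a probe set 1 was tested, and it was not called.

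Of 14 ion carriers 2 were called higher (14.3%, against 12.3% of the genes of the same rule) and none lower. Slc4a11, a proton- and ammonia-linked membrane carrier, gave 399.5 and 599 in KO cells, against 126 and 139 in WT cells (1.77 ± 0.24, limma adjusted p = 0.00187). Slc9b2, a sodium-proton exchanger, gave 397 and 472 in KO cells, against 146 and 172 in WT cells (1.36 ± 0.21, limma adjusted p = 0.00328). Neither overlapped between groups, and in both the WT mean was under the minimum of 200. The organelle exchangers Slc9a9 (0.59, limma adjusted p = 0.0516) and Slc9a7 (0.78, limma adjusted p = 0.0532) missed the threshold narrowly. Slc66a2, of no assigned substrate here, did so too (0.58, limma adjusted p = 0.0501). Nucleoside carriers (Slc29a1, Slc29a3, Slc29a4 and Slc43a3) lay between -0.17 and -0.63 with no call. Vitamin and choline carriers had no call, from the choline carrier Slc44a1 at 0.22, through its relative Slc44a2 at -0.29 (10404 and 11757 in KO cells, 12706 and 14443 in WT cells, limma adjusted p = 0.0913), to the ascorbate carrier Slc23a2 at -0.52. The phosphate carriers were not called, with Slc20a1 at 2375 and 1872 in KO cells and 1897 and 1852 in WT cells (0.17), and Slc20a2 at 233 and 209.99 in KO cells and 239 and 279 in WT cells (-0.21). Slc27a4, which takes up fatty acids, gave 573 and 529.995 in KO cells, against 376 and 378 in WT cells (0.53, limma adjusted p = 0.0587). Slc49a4, a lysosomal membrane protein, was lower (-0.70, limma adjusted p = 0.0191). Of the 4 genes that are no transporters, Slc2a4rg-ps, a pseudogene, was called lower at 169.985 and 184 in KO cells, against 285 and 335 in WT cells (-0.75, limma adjusted p = 0.0435). Slc9a3r1, a scaffold protein, gave 13879 and 13104 in KO cells and 11215 and 10869 in WT cells and narrowly missed the threshold (0.29, limma adjusted p = 0.0532). Slc7a6os overlapped between groups at 383 and 342 in KO cells and 282 and 346 in WT cells (0.20).

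Probe sets of the same gene were read against each other. Of the 141 members 60 had 1 probe set of their own and 81 had several, and 62 of the other probe sets also had a mean of 200 or more. Of the 11 that belong to called members, 6 were called in the same direction, 3 went the same way without a call, 1 (Slc30a7) was called the opposite way and 1 (Slc31a1) went the opposite way without a call. Of the 51 that belong to members not called, 3 were called: Slc17a9 lower, Slc25a30 higher and Slc2a1 higher.

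**Figure D4:**
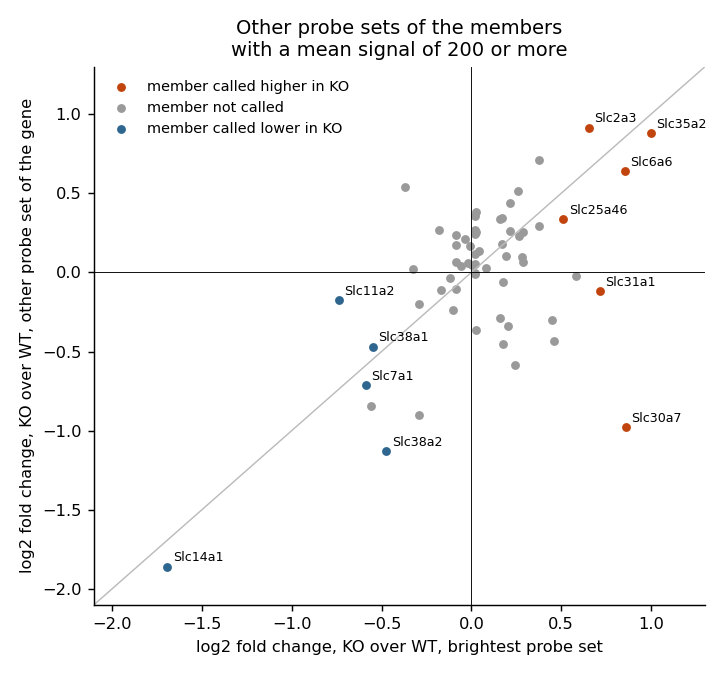
Log2 difference of KO minus WT on the brightest probe set of each member (horizontal) against that on its other probe sets with a mean of 200 or more (vertical), with a line of equality. Slc2a3, Slc35a2, Slc6a6, Slc7a1, Slc38a2 and Slc14a1 lie on the same side on both, while Slc30a7 lies at 0.86 against -0.98.

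Transporters that carry no Slc symbol were read beside the members. Of the 38 tested, 7 were called higher and 2 lower, against 7.89% and 9.17% of all tested probe sets. Over the genes of the same rule 12.3% were called higher and 13.4% lower, but some of the 38 had a mean under 200. Aqp9, a channel for water, glycerol and urea, gave 1813 and 1335 in KO cells, against 150 and 185 in WT cells, the widest gap of this list (3.11 ± 0.20, limma adjusted p = 4.46e-05). Aqp3, a glycerol channel, rose by 1.55 and Pqlc3 by 0.98 (limma adjusted p = 0.00096). Flvcr1, a heme and choline carrier, gave 1474 and 1628 in KO cells, against 739 and 823 in WT cells (0.98 ± 0.13, limma adjusted p = 0.00194). Ank, a pyrophosphate and ATP exporter, was lower at 396 and 382 in KO cells, against 1012 and 991 in WT cells (-1.33 ± 0.15, limma adjusted p = 0.00064).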

How the data were processed

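RNA of KO and WT splenic T cells after 3 days of culture was measured on 4 single-colour Affymetrix arrays. The deposited values are linear intensity values per probe set, made by the authors with MAS5, per the submitters' processing notes, its version not given in the sources used here. The trimmed mean was the same on every array, so differences in total RNA content per cell cannot be seen. Genes were named from the platform annotation, and probe sets naming several genes were not used.

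Signals were transformed as log2(signal + 16), and 64 control probe sets and the dimmest 40% of the rest were dropped, leaving 27022. The KO minus WT difference was fitted with limma 3.58.1 in R 4.3.3 (lmFit, then eBayes with a variance trend on intensity) and adjusted by Benjamini-Hochberg at a threshold of 0.05. Residual degrees of freedom were 2 and prior ones 6.41. The smallest two-sided p of an exact permutation test with 2 arrays in each group is 0.333. The number of arrays limits the precision. The fit was tested on simulated data.

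Each member is the brightest probe set of a gene. Named with values were the 12 largest called changes in each direction with groups that do not overlap, up to 3 members of smallest p per class, the Slc1, Slc2, Slc3a2, Slc7, Slc16, Slc38 and iron members, probe sets with opposite calls, and the leading genes of the transporter and partner lists. Emb, Castor1, Rragd, Txnip, Hmox1, Ncoa4 and Flvcr1 were chosen after their values were seen. So were the other genes of the amino acid response and further members given beside their class. Members, classes and lists were chosen with earlier results of these data known, and some class assignments were made after the files were read. Promoter windows are from RefSeq. Alternatives were the pseudocount, the filter, the scaling, the trend, the array number as a block, cross-hybridising probe sets, other minimum signals, the mean of probe sets, both groups at the minimum (added after seeing the data) and leaving out each array.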

Additional observations from a re-analysis of the deposited data

How the results depend on the processing

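The counts of called members were 26 higher and 11 lower. Without the intensity trend 7 members were called higher and 2 lower, and 727 and 456 probe sets. Leaving out each array gave 16 to 24 members higher and 5 to 12 lower, 1542 to 1824 probe sets higher and 1033 to 2660 lower, and a median log2 difference of the members of 0.07 to 0.13. The numbers of the arrays were not shown to pair them, since the KO1 minus KO2 differences correlated at 0.01 with the WT1 minus WT2 differences and there are only 2 pairs. With the number as a block 29 members were called higher and 15 lower, and 2412 and 2970 probe sets. With pseudocounts of 1 and 64, other filters, quantile normalization, median centring, cross-hybridising probe sets left out, and members at 100, 400 or in both groups at 200, between 20 and 32 members were called higher and 10 to 14 lower. The mean of all probe sets gave 32 and 15.

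Differences that changed sign were Slc66a2 (-0.021 without cross-hybridising probe sets) and, with the mean of all probe sets, Slc30a7 (-0.060), Slc7a6os (-0.069) and Slc38a9 (-0.11). When single arrays were left out, members that were not called ranged over 0: Slc20a1 from -0.00198 to 0.34, Slc2a8 from -0.068 to 0.30, Slc2a6 from -0.36 to 0.53, Slc38a10 from -0.021 to 0.069, Slc16a1 from -0.11 to 0.0079 and Slc7a4 from -0.15 to 0.35. The cause of these changes was not tested. With 2 arrays per group, 1 of the 90 members with a difference under 0.5 in size, Slc38a2, was called.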
